A study of Mus musculus with 30 samples.

Results

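The genes described here are 10 that mark alveolar type 2 (AT2) cells and the surfactant they make, namely Sftpa1, Sftpb, Sftpc, Sftpd, Abca3, Lamp3, Napsa, Lpcat1, Slc34a2 and Etv5. They were taken by symbol from count files that list 55487 genes, and each member matched 1 gene. No threshold on a measured value was used, but the list was chosen with earlier results of these data known. The libraries came from mouse lung organoid cultures in Matrigel, each seeded with 300000 Epcam+ lung epithelial cells of a wild-type C57BL/6J mouse and an equal number of CCL206 fibroblasts, a line from mouse lung kept from dividing with mitomycin C. The cultures were exposed for 72 hours to vehicle, to an exacerbation cocktail (EC; TNFα, IL-1β, IL-6 and IL-8, the last given as KC in the methods), to an IPF cocktail (IPFc; the cytokines IL-1β, IL-4, IL-13, IL-33, TSLP and TNFα with TGF-β and the chemokines CCL2 and IL-8) or to TGF-β alone at 2 ng/ml (TGFb). TGF-β, IL-1β, TNFα and IL-8 were thus each present in more than 1 of the treatments. The study used adult mice of both sexes, and the sex of the 4 sequenced mice is not given. The same 4 mice served all treatments. After digestion the cells were sorted again with Epcam beads, and the Epcam+ cells (epithelial fraction) and the remaining cells (fibroblast fraction) were sequenced as bulk RNA. The epithelial fraction had 4 libraries for vehicle, 4 for EC, 4 for IPFc and 3 for TGFb (mice 2, 3 and 4). The fibroblast fraction had 3 for vehicle (mice 1, 3 and 4) and 4 for each treatment. CCL206 is 1 line, so the fibroblasts do not differ between mice, and an epithelial fraction of the whole lung holds AT2, AT1 and airway cells together.

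Pulmonary surfactant is a film of phospholipid and protein that keeps alveoli from collapsing, and AT2 cells are its source. SP-B and SP-C, encoded by Sftpb and Sftpc, are small hydrophobic proteins that spread the lipid film, whereas SP-A and SP-D, encoded by Sftpa1 and Sftpd, are collectins that bind microbes and regulate surfactant uptake. Lipid and hydrophobic protein are packed in lamellar bodies, lysosome-related organelles, before they are secreted. AT2 cells are also the progenitors of the alveolar epithelium and give rise to AT1 cells.

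The 30 libraries held 5113828 to 20317181 counted reads, the lowest total being that of the fibroblast EC library of mouse 1. In the epithelial fraction all 19 pan-epithelial markers exceeded 10 reads per 1000000 counted (CPM) in every library. Markers of AT1 cells summed to 4484 to 5115 CPM over 13 genes and those of club cells to 2237 to 2881 CPM over 9 genes in the vehicle libraries, beside 12847 to 16409 CPM for the 10 members. Immune markers (13 genes) summed to at most 16.4 CPM and endothelial markers (8 genes) to at most 4.54 CPM in any epithelial library. The share of fibroblast RNA in an epithelial library, taken as the median ratio of fibroblast markers to the fibroblast library of the same culture, was 3.74 to 9.09% with vehicle, 5.46 to 14.8% with EC, 4.91 to 16.1% with IPFc and 25.9 to 31.7% with TGFb. That ratio takes the fibroblast library as pure, but these libraries held epithelial RNA as well. Their epithelial share by the same measure was 13.6 to 27.5% with vehicle and 35.7 to 56.6% with EC. The ratio thus overstates the fibroblast share, and not equally between treatments. It also takes the fibroblast markers as RNA of fibroblasts alone, which was not tested. In bulk RNA, a smaller number of AT2 cells and less RNA of a gene per cell cannot be told apart.

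Promoter sequences of 7 of the 10 members (8 promoters) were found in RefSeq (GRCm38.p6). No entry was found for Sftpc, Sftpd and Napsa. Each entry held 300 bases and was searched on both strands for CAAGTG (the core bound by NKX2-1, the lung lineage factor), TNTTTAC (forkhead factors) and TGANTCA (AP-1), motifs whose matches did not overlap. CAAGTG occurred in 13.6% of all 32851 promoters, TNTTTAC in 12.4% and TGANTCA in 7.81%. The 250 bases before the start site are shown for the pair of genes that fell furthest with TGFb among those with an entry, Sftpa1 and Sftpb, and for Lamp3, the member called higher with EC. Capitals mark motif matches. Sftpa1 lies at chr14:41131538-41131787 on the plus strand with CAAGTG matched on its other strand at positions -202 and -14 from the start site, Sftpb at chr6:72304360-72304609 on the plus strand with TGANTCA at -18, and Lamp3 at chr16:19706366-19706615 on the minus strand with TNTTTAC at -92.
Sftpa1: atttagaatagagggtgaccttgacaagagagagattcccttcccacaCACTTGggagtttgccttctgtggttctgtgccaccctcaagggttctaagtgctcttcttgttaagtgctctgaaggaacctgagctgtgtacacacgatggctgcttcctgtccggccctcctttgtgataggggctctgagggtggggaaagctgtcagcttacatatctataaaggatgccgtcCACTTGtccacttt
Sftpb: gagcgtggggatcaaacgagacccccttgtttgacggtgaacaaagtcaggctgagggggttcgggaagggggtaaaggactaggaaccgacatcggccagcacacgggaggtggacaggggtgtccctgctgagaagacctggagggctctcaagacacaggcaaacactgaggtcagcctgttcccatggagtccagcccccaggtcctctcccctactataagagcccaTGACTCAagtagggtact
Lamp3: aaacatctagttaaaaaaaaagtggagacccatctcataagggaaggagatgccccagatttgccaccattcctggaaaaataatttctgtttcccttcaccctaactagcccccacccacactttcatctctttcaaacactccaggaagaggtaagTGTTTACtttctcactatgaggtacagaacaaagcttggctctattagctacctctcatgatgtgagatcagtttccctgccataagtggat
Among the other members with an entry, 1 of the 2 Etv5 promoters held TNTTTAC at -183, and the promoters of Abca3, Lpcat1 and Slc34a2 held none of the 3 motifs.

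Per kilobase of exon, the level of the members in vehicle epithelial libraries covered a wide range. Sftpc stood highest with a median of 3659 CPM per kb (range 3518 to 4817, n = 4), followed by Sftpb with 2723 (2551 to 3587), and the ranges of these neighbours overlapped. Sftpd (median 547 CPM per kb) and Sftpa1 (279) came next, each apart from its neighbours. Below them followed Slc34a2 (112 CPM per kb), Lpcat1 (82.4), Abca3 (50.8), Lamp3 (42.1), Napsa (28.2) and Etv5 (11.1). Of these, the ranges of Abca3 (48.2 to 53.6) and Lamp3 (38.8 to 65.9) overlapped and the others did not. With TGFb the order changed. Sftpa1 dropped to a median of 13.5 CPM per kb, below Lpcat1 at 74.9, Slc34a2 at 49.6, Lamp3 at 24.9, Napsa at 17.6 and Abca3 at 17.6. Its range (8.09 to 21.6) overlapped those of Lamp3, Napsa and Abca3. Together the members took 1.28 to 1.64% of all counted reads with vehicle, 0.871 to 1.06% with EC, 0.981 to 1.37% with IPFc and 0.295 to 0.583% with TGFb. Only for EC and TGFb did these shares not overlap with vehicle.

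EC lowered most of the members in the epithelial fraction, and the hydrophobic proteins, the lipid transporter Abca3, the enzyme Lpcat1, the phosphate transporter Slc34a2 and the factor Etv5 were all among those that fell. Of the 10 members, 7 passed an adjusted p of 0.05 against vehicle, where 4.67% of all genes tested did. 6 of them were lower (background 2.7%) and 1, Lamp3, was higher (background 1.96%). The median log2 fold change of the members was -0.47, beside -0.01 over all genes. The collectins Sftpa1 and Sftpd and the protease Napsa did not pass. AT1 markers fell with EC too, 8 of 12 tested being lower (median -0.53), among them Ager, the receptor for advanced glycation end products (-1.11 ± 0.14, adjusted p = 7.17e-05), and their summed level was 3207 to 4000 CPM beside 4484 to 5115 CPM with vehicle. Club cell markers held 2 higher and 2 lower of 9, and the median of the pan-epithelial markers was -0.01. The part of the cell makeup of the fraction in the members' differences was not tested. Without the mouse in the model only 2 members, Sftpc and Lpcat1, passed, and without mouse 3 it was 4.

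IPFc gave differences in both directions. Of the 10 members 5 passed, beside 5.94% of all genes, with Sftpb, Sftpc, Abca3 and Lpcat1 lower (4 members, background 2.57%) and Sftpa1 higher (1 member, background 3.37%). The members' median log2 fold change was -0.24, beside 0.00 over all genes and -0.14 for the pan-epithelial markers (2 of 19 lower). Of the fibroblast markers, 12 of 19 tested were higher (median 0.71). The part of fibroblast RNA in the members' differences was not tested. AT1 markers were lower in 8 of 13 (median -0.47, summed level 3466 to 3934 CPM), and club cell markers were lower in 3 and higher in 1 of 9. Without the mouse in the model 1 member passed, and in a model of all 15 epithelial libraries 2 did.

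By their median, TGFb lowered the members further than EC and IPFc did, but Lpcat1 was lowest with EC. All 10 members passed the test as lower, where 41.5% of all genes passed in either direction, 20.3% as lower and 21.2% as higher, although Lpcat1 turned to a log2 fold change of 0.15 that did not pass once libraries were scaled by their fibroblast share. The median of the members was -1.43, beside 0.05 over all genes. The share of fibroblast RNA as estimated from markers was higher with this treatment. Whether epithelial cells made part of that marker RNA was not tested. Scaling by the estimated share shifted the median gene to 0.46 and left the other 9 members lower, from -0.37 for Napsa to -4.09 for Sftpa1. With robust estimation of the spread, Sftpc, Lamp3 and Slc34a2 no longer passed (adjusted p 0.160, 0.301 and 0.143). This fit shared spread strongly across genes (132 prior degrees of freedom), so its standard errors and adjusted p-values are optimistic. Single pairs ran from -5.37 to -3.79 for Sftpa1 and from -2.12 to -0.38 for Lamp3, each with a standard error of 0.12.

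**Figure D1:**
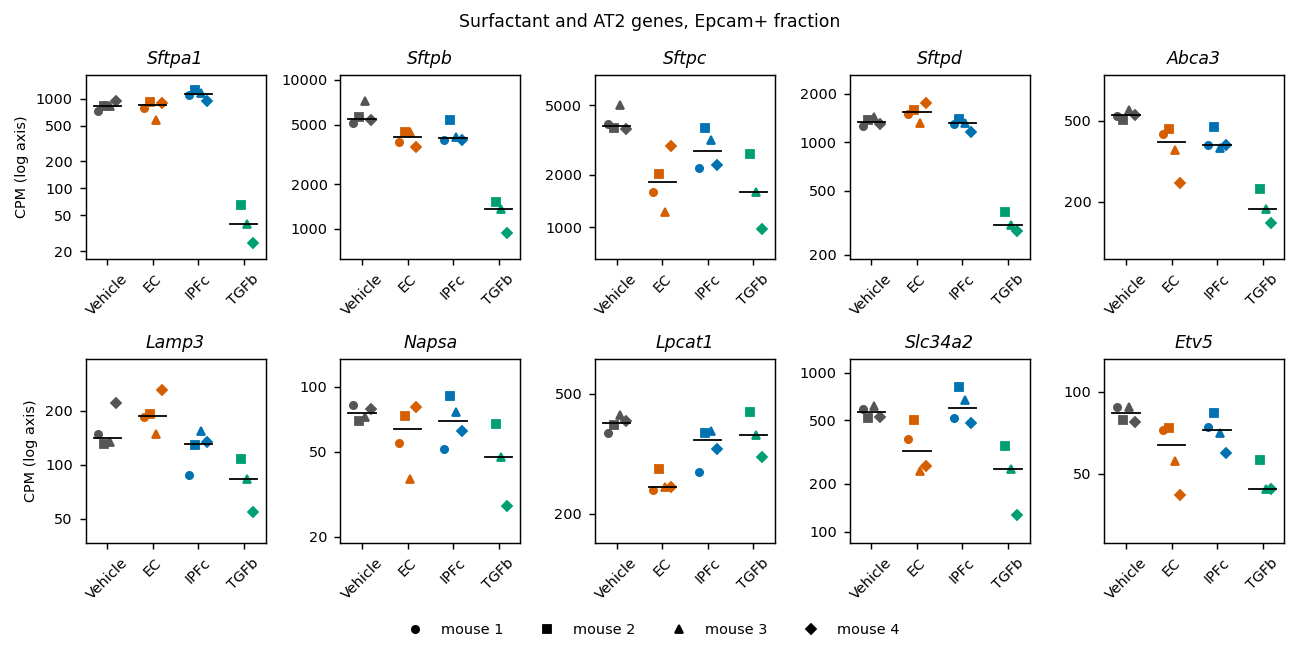
Level of each member in the 15 epithelial libraries, in CPM on a log axis, by treatment. Symbols mark the mouse and bars the group median. Sftpa1 drops from 737 to 937 CPM with vehicle to 24.3 to 64.9 CPM with TGFb, and Lamp3 is the member called higher with EC.

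Neither collectin passed with EC, and both fell with TGFb. Sftpa1 measured 737, 839, 837 and 937 CPM in the vehicle libraries of mice 1 to 4 and 795, 919, 580 and 894 CPM with EC. With IPFc it measured 1105, 1242, 1165 and 946 CPM. With TGFb it measured 64.9, 40.5 and 24.3 CPM in mice 2 to 4. The EC values lay around the vehicle values, every IPFc value lay above them, the smallest gap being that between 937 and 946 CPM in mouse 4, and the TGFb values lay far below them. The log2 fold change was -0.06 ± 0.10 (SE, adjusted p = 0.869) with EC and 0.40 ± 0.08 (adjusted p = 0.00158) with IPFc. It was -4.50 ± 0.12 (adjusted p = 9.81e-68) with TGFb, a 22.6-fold lower level. Among the members this was the steepest difference, in each of 3 pairs.

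Sftpd lies on chromosome 14 as Sftpa1 does. It measured 1256, 1364, 1429 and 1307 CPM with vehicle and 1492, 1596, 1321 and 1753 CPM with EC. With IPFc it measured 1298, 1398, 1319 and 1157 CPM, and with TGFb 370, 307 and 282 CPM. The EC libraries were higher in 3 of 4 pairs, but the log2 fold change of 0.22 ± 0.10 did not pass (adjusted p = 0.285), nor did that of -0.06 ± 0.07 with IPFc (adjusted p = 0.811). The TGFb values did not overlap with the others, and the level was 4.63-fold lower (log2 fold change -2.21 ± 0.09, adjusted p = 3.73e-47).

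The hydrophobic proteins fell with all 3 treatments. Sftpb measured 5159, 5650, 7254 and 5361 CPM with vehicle and 3859, 4444, 4504 and 3561 CPM with EC. It measured 3933, 5364, 4124 and 3969 CPM with IPFc and 1511, 1367 and 938 CPM with TGFb. Every EC and TGFb library was below every vehicle library, and with IPFc the library of mouse 2 alone reached the vehicle range. The log2 fold change was -0.49 ± 0.08 with EC (adjusted p = 0.00164), -0.44 ± 0.08 with IPFc (adjusted p = 5.58e-04) and -2.38 ± 0.09 with TGFb (adjusted p = 1.02e-52).

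Sftpc, the marker by which AT2 cells are most often recognised, measured 3881, 3709, 4995 and 3648 CPM with vehicle. With EC it measured 1599, 2021, 1223 and 2906 CPM, with a wide spread between mice. With IPFc it measured 2191, 3711, 3149 and 2287 CPM, and with TGFb 2639, 1596 and 984 CPM. The EC and TGFb values all lay below the vehicle values, with the EC culture of mouse 4 and the TGFb culture of mouse 2 closest to them, and with IPFc mouse 2 differed from its vehicle culture by a log2 value of -0.02 only. Fold changes were -1.10 ± 0.18 with EC (adjusted p = 0.00121), -0.55 ± 0.09 with IPFc (adjusted p = 1.03e-04) and -1.45 ± 0.10 with TGFb (adjusted p = 6.43e-27) on the log2 scale. Between the EC and TGFb cultures the other 3 surfactant proteins passed the test and Sftpc did not (0.42 ± 0.25, adjusted p = 0.209). With robust estimation the EC difference no longer passed either (adjusted p = 0.136).

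Abca3, the pump that carries phospholipid into lamellar bodies, measured 529, 505, 561 and 534 CPM with vehicle and 431, 456, 359 and 247 CPM with EC. It measured 380, 468, 367 and 380 CPM with IPFc and 232, 184 and 157 CPM with TGFb. No treated library reached the vehicle range, which was narrow. The log2 fold change was -0.52 ± 0.12 with EC (adjusted p = 0.0132), -0.43 ± 0.08 with IPFc (adjusted p = 5.25e-04) and -1.60 ± 0.10 with TGFb (adjusted p = 1.05e-31). Scaled by the fibroblast share, the EC difference came to -0.44 with an adjusted p of 0.0517, and without mouse 3 to -0.48 (adjusted p = 0.0683).

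Lamp3, a membrane protein of lamellar bodies also known as DC-LAMP, moved in the opposite direction with EC. It measured 149, 130, 133 and 221 CPM with vehicle and 184, 192, 148 and 261 CPM with EC. It measured 87.4, 128, 155 and 134 CPM with IPFc and 107, 83.4 and 54.7 CPM with TGFb. The vehicle and EC groups overlapped, since mouse 4 was high in both, but within each of the 4 mice the EC culture was higher. The log2 fold change was 0.34 ± 0.09 with EC (adjusted p = 0.0399), -0.33 ± 0.11 with IPFc (adjusted p = 0.0954) and -1.07 ± 0.12 with TGFb (adjusted p = 1.65e-13). The EC call was lost with total counts as the scale (adjusted p = 0.0712), with a stricter filter, without the mouse in the model, in the model of all 15 libraries and when mouse 1, 2 or 3 was left out. The TGFb call was lost with DESeq2 (adjusted p = 0.0598), and without mouse 4 its value came to -0.60.

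Napsa encodes napsin A, an aspartic protease that takes part in the maturation of SP-B. It measured 82.5, 69.5, 72.1 and 78.6 CPM with vehicle and 54.8, 73.1, 37.2 and 80.9 CPM with EC. It measured 51.2, 90.4, 76.1 and 62.3 CPM with IPFc and 67.4, 47.1 and 28.0 CPM with TGFb. With both cocktails 2 of 4 pairs were lower and 2 higher, and neither the EC (-0.33 ± 0.14, adjusted p = 0.290) nor the IPFc difference (-0.14 ± 0.11, adjusted p = 0.675) passed. With TGFb it was lower in 3 of 3 pairs (-0.78 ± 0.12, adjusted p = 2.87e-08), a call that DESeq2 did not make (adjusted p = 0.0837), and without mouse 4 the value came to -0.45. Without mouse 4 the EC difference passed (-0.48, adjusted p = 5.71e-08).

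Lpcat1 encodes the acyltransferase that makes the dipalmitoyl lecithin of surfactant. It measured 370, 395, 425 and 407 CPM with vehicle and 239, 282, 246 and 245 CPM with EC. It measured 276, 371, 377 and 329 CPM with IPFc and 437, 364 and 308 CPM with TGFb. The EC values were close to each other and all below the vehicle and TGFb values, only the IPFc library of mouse 1 reaching down to them, while the TGFb values ran across the vehicle range. On the log2 scale the EC difference was -0.63 ± 0.09 (adjusted p = 1.56e-04), a call that held under all the alternatives run. It was -0.25 ± 0.08 with IPFc (adjusted p = 0.0411), a call that was lost with the stricter filter (adjusted p = 0.0615), without the mouse in the model, in the model of all 15 libraries, by the fibroblast share (-0.17, adjusted p = 0.257) and without mouse 1 (adjusted p = 0.444) or mouse 4 (adjusted p = 0.326). With TGFb it was -0.27 ± 0.09 (adjusted p = 0.0161) with 2 of 3 pairs lower, and this value turned to 0.15 when scaled by the fibroblast share. It ran from -0.42 without mouse 2 to -0.17 without mouse 4 and did not pass without mouse 3 or 4.

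Slc34a2, the sodium-phosphate cotransporter of the AT2 cell, measured 594, 522, 614 and 529 CPM with vehicle and 384, 506, 241 and 259 CPM with EC. It measured 520, 815, 674 and 484 CPM with IPFc and 345, 249 and 127 CPM with TGFb. The EC values all lay below the vehicle values, but mouse 2 stayed close to its vehicle culture and mice 3 and 4 were lowest. Its log2 fold change was -0.74 ± 0.14 with EC (adjusted p = 0.00495), 0.11 ± 0.09 with IPFc (adjusted p = 0.720) and -1.41 ± 0.11 with TGFb (adjusted p = 8.72e-24).

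Etv5, a transcription factor downstream of FGF signalling that maintains AT2 identity, was the lowest member per kilobase of exon, while in CPM it lay near Napsa. It measured 88.2, 78.8, 88.1 and 77.4 CPM with vehicle and 72.3, 73.6, 55.6 and 41.6 CPM with EC. It measured 74.0, 83.7, 70.7 and 59.5 CPM with IPFc and 55.9, 44.1 and 44.0 CPM with TGFb. All EC and TGFb values lay below the vehicle values. The differences were -0.46 ± 0.11 with EC (adjusted p = 0.0272), -0.22 ± 0.09 with IPFc (adjusted p = 0.189) and -0.87 ± 0.11 with TGFb (adjusted p = 1.73e-11). Scaled by the fibroblast share, the EC difference did not pass (-0.37, adjusted p = 0.0971), nor did it without mouse 3 (-0.39, adjusted p = 0.184). Without mouse 2 the IPFc difference passed (-0.32, adjusted p = 0.0427).

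The members ordered the mice alike with TGFb and less so in the other groups. With TGFb, mouse 2 had the highest value of the 3 libraries and mouse 4 the lowest for 10 of 10 members, and with IPFc mouse 2 was highest for 8 of 10. With EC mouse 2 was highest for 5 and mouse 4 for 4 of 10 (and lowest for 3), and with vehicle mouse 3 was highest for 6 and mouse 2 for 0 of 10. These genes share their libraries, so the ranks are not independent. The fibroblast share in the TGFb libraries of mice 2, 3 and 4 was 27.6, 25.9 and 31.7%, and its part in this order was not tested.

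**Figure D2:**
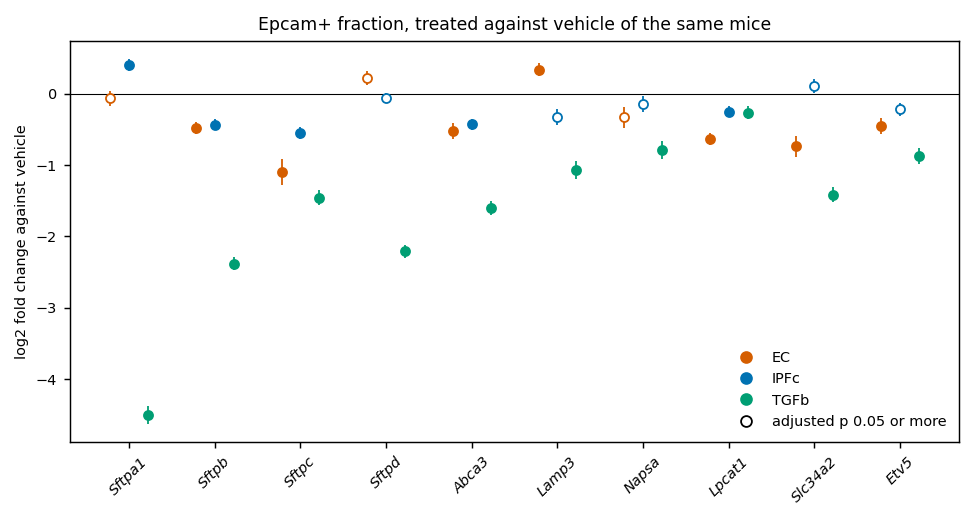
Log2 fold change of each member against vehicle in the epithelial fraction, with its standard error, for EC and IPFc (4 pairs each) and TGFb (3 pairs). Open circles did not pass an adjusted p of 0.05. Sftpa1 spans the widest range, from 0.40 with IPFc to -4.50 with TGFb, and Lpcat1 is the member lowest with EC rather than with TGFb (its TGFb value of -0.27 turns to 0.15 when scaled by the fibroblast share).

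The treatments were also compared with each other. EC and IPFc differed for 3 of 10 members (3.54% of all genes). Lamp3 was higher with EC (0.67 ± 0.15, adjusted p = 0.0132, 1 member, background 1.48%), in 3 of 4 pairs. Slc34a2 (-0.84 ± 0.13, adjusted p = 7.65e-04) and Lpcat1 (-0.38 ± 0.10, adjusted p = 0.0491) were lower with EC in 4 of 4 pairs (2 members, background 2.05%). Sftpa1 missed the threshold (-0.46 ± 0.13, adjusted p = 0.0561), as did Sftpc (-0.56 ± 0.19, adjusted p = 0.149). The Lpcat1 call was lost with DESeq2 size factors (adjusted p = 0.0540), the stricter filter, robust estimation, the fibroblast share, and without mouse 1, 2 or 3, and that of Lamp3 in the model of all 15 libraries (adjusted p = 0.0588) and without mouse 1 (0.53, adjusted p = 0.0613). Without mouse 4 Sftpa1 and Sftpc passed as lower with EC (-0.61 and -0.87). Without the mouse in the model edgeR called 0 of 10 (5 at an unadjusted p under 0.05), while DESeq2 with the mouse called 4. The count was 1 without mouse 1, 5 without mouse 4 and 6 without a filter on low counts.

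Between EC and TGFb, 7 of 10 members passed, all higher with EC, beside 32.7% of all genes in either direction and 16.6% as higher. The largest difference was that of Sftpa1 (4.44 ± 0.23, adjusted p = 1.10e-15), followed by Sftpd (2.47 ± 0.17), Sftpb (1.92 ± 0.17), Lamp3 (1.47 ± 0.21), Abca3 (1.05 ± 0.15), Slc34a2 (0.69 ± 0.18) and Napsa (0.59 ± 0.23). Lpcat1 was lower with EC in 3 of 3 pairs without passing (-0.33 ± 0.15, adjusted p = 0.105). Scaled by the fibroblast share, Lpcat1 passed as lower with EC (-0.66, adjusted p = 0.00138) and Slc34a2 and Napsa no longer passed. The Napsa difference, higher with EC in 2 of 3 pairs, was also lost with DESeq2 (adjusted p = 0.104), total counts (0.201) and the stricter filter (0.163). It was lost too with robust estimation (0.334), without the mouse in the model (0.165) and in the model of all 15 libraries (0.0628). Its value came to 0.040 without mouse 4 and to 1.00 without mouse 3. Without mouse 4 those of Lamp3 and Slc34a2 came to 0.98 and 0.40, and Lpcat1 (-0.46) and Etv5 (0.51) passed. Without mouse 2 or 3, Sftpc passed (0.78 and 0.79).

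IPFc, which contains TGF-β, was also set against TGFb. Of the members, 9 of 10 passed as higher with IPFc, beside 36.6% of all genes in either direction and 20% as higher, and Lpcat1 did not (0.11 ± 0.08, adjusted p = 0.332) unless mouse 2 was left out (0.21, adjusted p = 0.00972). Sftpa1 was 30.0-fold higher (4.91 ± 0.14, adjusted p = 1.33e-13). Sftpc was 2.06-fold higher (1.04 ± 0.10, adjusted p = 3.65e-07).

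The wider AT2 programme was read from 5 further lists, of surfactant lipid synthesis (23 genes), lamellar bodies, secretion and turnover (18), other AT2 markers (19), AT2 transcription factors (17) and FGF receptor signalling (12). Over all genes tested, 2.7% were lower and 1.96% higher with EC, 2.57% lower and 3.37% higher with IPFc, and 20.3% lower and 21.2% higher with TGFb. With EC, few genes of lipid synthesis passed (1 higher and 2 lower of 23, median -0.07, beside -0.01 for pan-epithelial markers). The gene that rose was Fabp5, a fatty acid binding protein (0.86 ± 0.09, adjusted p = 1.12e-05). Those that fell were Cds1, which makes CDP-diacylglycerol (-0.78 ± 0.11), and Pcyt1a, which limits the rate of phosphatidylcholine synthesis (-0.48 ± 0.09, adjusted p = 0.00278). With IPFc these 3 genes passed as well, with 0.69, -0.76 and -0.47. Of the lamellar body list, 17 genes were tested with EC, of which 1 was higher and 3 lower. P2ry2, the purinergic receptor that triggers surfactant secretion, rose with EC (0.80 ± 0.10) and with IPFc (1.01 ± 0.09) and fell with TGFb (-0.69 ± 0.14, adjusted p = 7.63e-06). The flippase Atp11a (-0.62 ± 0.12) and Rab3d (-0.54 ± 0.11), a GTPase of secretory vesicles, fell with EC. Csf2rb, a chain of the GM-CSF receptor, rose with IPFc from 1.33 to 6.51 CPM (2.15 ± 0.29), and Ctsh, a protease of SP-B and SP-C maturation, fell (-0.37 ± 0.07).

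Other AT2 markers went both ways with EC, 5 being higher and 6 lower of 18 tested. Chil1, a chitinase-like secreted protein, rose from 84.6 to 445 CPM (2.39 ± 0.12, adjusted p = 1.64e-09). Il33, an alarmin, rose from 157 to 337 CPM (1.14 ± 0.09). Hc, encoding complement C5, fell from 29.7 to 7.26 CPM (-2.02 ± 0.15). The lysozyme gene Lyz1 rose with EC (1.53 ± 0.14) and fell with IPFc (-1.61 ± 0.16). With IPFc 3 markers were higher and 5 lower of 18, among them Chil1 (1.38 ± 0.10) and the calcium-binding S100g (-1.02 ± 0.12). Among the transcription factors, Cebpd rose with EC (1.67 ± 0.15) as the only one of 17 that passed, and with IPFc Sox9 rose (1.23 ± 0.20) and Cebpa fell (-0.28 ± 0.08). Of the FGF list, Fgfr3 fell with EC (-0.77 ± 0.10) and IPFc (-0.44 ± 0.09), whereas Etv1, a relative of Etv5, rose with IPFc (1.37 ± 0.11) and Fgfr2, the receptor for FGF7 and FGF10, fell (-0.43 ± 0.08).

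With TGFb 18 of 23 lipid synthesis genes were lower and 1 higher (median -0.56). Fabp5 fell here (-1.24 ± 0.10), with Agpat2 (-1.35 ± 0.12) and Cds1 (-1.35 ± 0.14). In the lamellar body list 8 of 18 were lower and 4 higher, among them the lower Npc2 (-1.09 ± 0.09) and the phospholipase Prdx6 (-1.09 ± 0.10). Of the other AT2 markers 12 of 19 were lower and 5 higher. Cxcl15, the chemokine lungkine, fell from 1649 to 237 CPM (-2.90 ± 0.11), Cpm fell by 2.33 on the log2 scale, and Egfl6 rose from 12.7 to 125 CPM (3.16 ± 0.13). Of the transcription factors 11 of 17 were lower and 1, Sox9, higher (3.06 ± 0.20), with Cebpa at -1.53 ± 0.11 and Elf5 at -2.29 ± 0.20. The FGF list held 5 higher and 3 lower of 12, with Etv1 higher (1.18 ± 0.15) and Fgfr3 (-1.28 ± 0.11) and Fgfr2 (-1.03 ± 0.10) lower. Pan-epithelial markers were lower as well (15 of 19, median -0.64), with Epcam itself higher at 0.78 ± 0.09. Of the AT1 markers 7 of 13 were lower and 3 higher. Of the club cell markers 8 of 9 were lower (median -1.72, beside -1.43 for the members). Of the fibroblast markers tested 20 of 20 were higher. The part of the fibroblast RNA in these list counts was not tested.

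**Figure D3:**
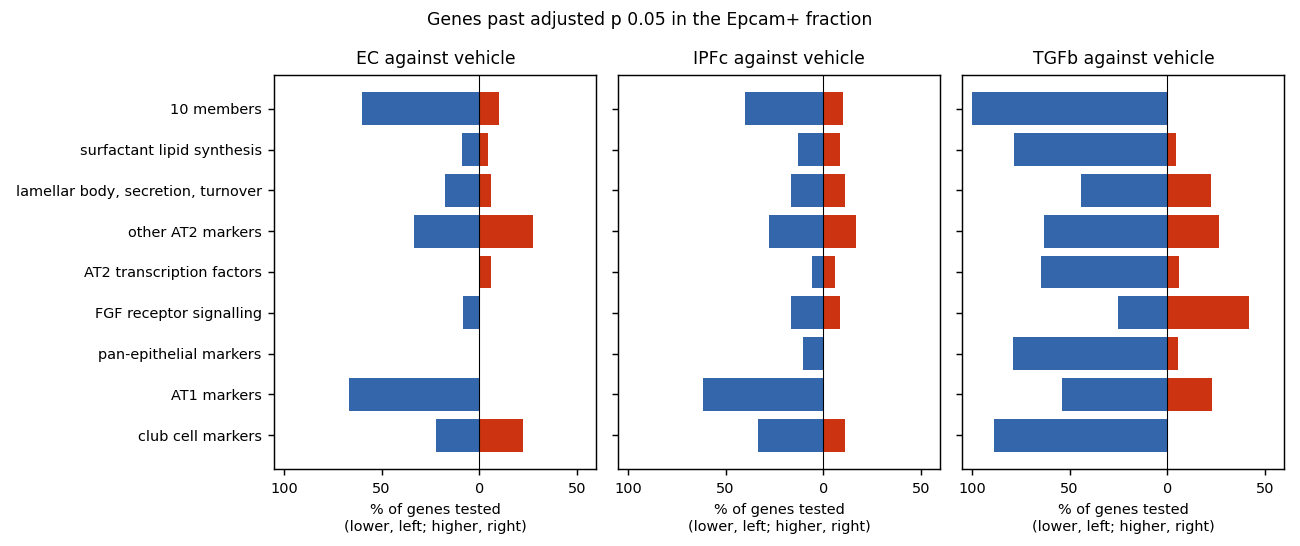
Share of the genes tested in each list that passed an adjusted p of 0.05 in the epithelial fraction, lower to the left and higher to the right, for EC, IPFc and TGFb against vehicle. With EC, 6 of 10 members and 8 of 12 AT1 markers are lower beside 2 of 23 lipid synthesis genes, and with TGFb pan-epithelial markers (15 of 19 lower) move along with the AT2 lists (10 of 10 members lower, of which Lpcat1 turns to 0.15 when scaled by the fibroblast share).

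Likeness to Sftpc was measured as the correlation of log2 CPM over the 15 epithelial libraries after removing each mouse's mean, a description over libraries that share mice and treatments. Mouse 1 had no epithelial TGFb library, so its mean lacked that treatment. Its centred values are thereby shifted down for genes that fell with TGFb, which affects the correlations. Among the members it was 0.89 for Napsa, 0.83 for Slc34a2, 0.74 for Etv5, 0.71 for Lpcat1, 0.71 for Sftpb and 0.70 for Abca3. It was 0.63 for Sftpa1, 0.56 for Sftpd and 0.51 for Lamp3. Of the 17184 genes compared, those most like Sftpc outside the members were 2610028H24Rik (0.92), Acaa2 (0.92), an enzyme of mitochondrial fatty acid oxidation, Rasl11a (0.92), Sptssb (0.91), a subunit of serine palmitoyltransferase, and Mtfr1l (0.90). 2610028H24Rik fell by 1.79 on the log2 scale with EC, by 1.07 with IPFc and by 1.80 with TGFb.

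The members were also read in the fibroblast fraction, where pan-epithelial markers gave the share of epithelial RNA. That share was 13.6 to 27.5% with vehicle, 35.7 to 56.6% with EC, 11.0 to 31.1% with IPFc and 0.820 to 3.41% with TGFb. All comparisons here used the 3 mouse pairs of mice 1, 3 and 4, so the treated library of mouse 2 is given below but did not enter a test, and the estimated spread took no account of a gene's own scatter (infinite prior degrees of freedom), so the adjusted p-values are optimistic. The counts below move with the share of epithelial RNA, and its part in them was not tested.

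With EC 4 of 10 members passed, beside 10.1% of all genes, all of them higher (background 6.4%). Sftpa1 measured 225, 258 and 313 CPM with vehicle (mice 1, 3 and 4) and 510, 557, 361 and 518 CPM with EC (0.89 ± 0.18, adjusted p = 3.68e-05). Sftpd measured 357, 337 and 496 CPM with vehicle and 992, 709, 628 and 952 CPM with EC (1.20 ± 0.18, adjusted p = 2.44e-09). In neither gene did the groups overlap. Sftpb (0.68 ± 0.17) and Lamp3 (0.64 ± 0.19) were higher in 3 of 3 pairs, but without mouse 4 neither passed (0.75 and 0.37), nor did Sftpb without mouse 3 (0.55). Sftpc went from 3054, 2594 and 3321 CPM to 2928, 2312, 1650 and 2143 CPM and did not pass (-0.36 ± 0.17, adjusted p = 0.174). In the EC library of mouse 1, the shallowest, Abca3 (113 CPM) and Etv5 (21.5 CPM) lay below the 268 to 349 CPM and 50.0 to 61.9 CPM of the other EC libraries. Without mouse 1, Sftpc passed as lower (-0.60, adjusted p = 1.65e-04) and 5 members passed in all, and without mouse 4 only 2 passed. Without the mouse in the model edgeR called 0 members (3 at an unadjusted p under 0.05), as it did in the model of all 15 libraries (2 at an unadjusted p under 0.05), whereas DESeq2 with the mouse called 4.

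With IPFc 2 of 10 members passed, beside 1.27% of all genes, both lower (background 0.541%). Sftpc measured 928, 2352, 2292 and 1964 CPM with IPFc (-0.85 ± 0.17, adjusted p = 1.65e-04) and Napsa 29.4, 64.8, 52.4 and 46.3 CPM beside 68.2, 68.6 and 66.3 CPM with vehicle (-0.67 ± 0.18, adjusted p = 0.0167). The IPFc library of mouse 1 had the lowest value of its group for 10 of 10 members, and without mouse 1 neither gene passed (-0.45 and -0.43). Napsa did not pass without mouse 4 either (-0.75, adjusted p = 0.107), while Lamp3 then did (-0.86, adjusted p = 0.0225). DESeq2 called 0 members (5 at an unadjusted p under 0.05, adjusted p = 0.844 for Sftpc).

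With TGFb 10 of 10 members passed as lower, beside 19.6% of all genes in either direction and 12.5% as lower. The extent differed between genes. Sftpa1 fell to 1.30, 5.29, 0.306 and 1.86 CPM (-7.79 ± 0.25, adjusted p = 1.72e-211), with as few as 5 reads in a library. Sftpd fell to 3.74, 18.6, 4.90 and 16.7 CPM and Sftpc to 37.2, 274, 80.9 and 134 CPM. The log2 fold changes of Lamp3, Sftpb, Slc34a2 and Napsa were -5.25, -5.09, -5.05 and -3.13. Abca3, by comparison, measured 99.1, 115, 102 and 108 CPM with TGFb beside 189, 243 and 284 CPM with vehicle (-1.08 ± 0.17). Lpcat1 measured 61.6, 75.6, 59.1 and 62.8 CPM beside 132, 155 and 153 CPM (-1.15 ± 0.17), and Etv5 26.0, 30.4, 30.3 and 27.7 CPM beside 37.1, 62.3 and 59.1 CPM (-0.77 ± 0.18, adjusted p = 1.48e-04). The Etv5 call was lost without mouse 4 (-0.65, adjusted p = 0.110). The TGFb values of these 3 genes lay within a narrow range in the 4 cultures, whereas those of Sftpc spread widely.

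**Figure D4:**
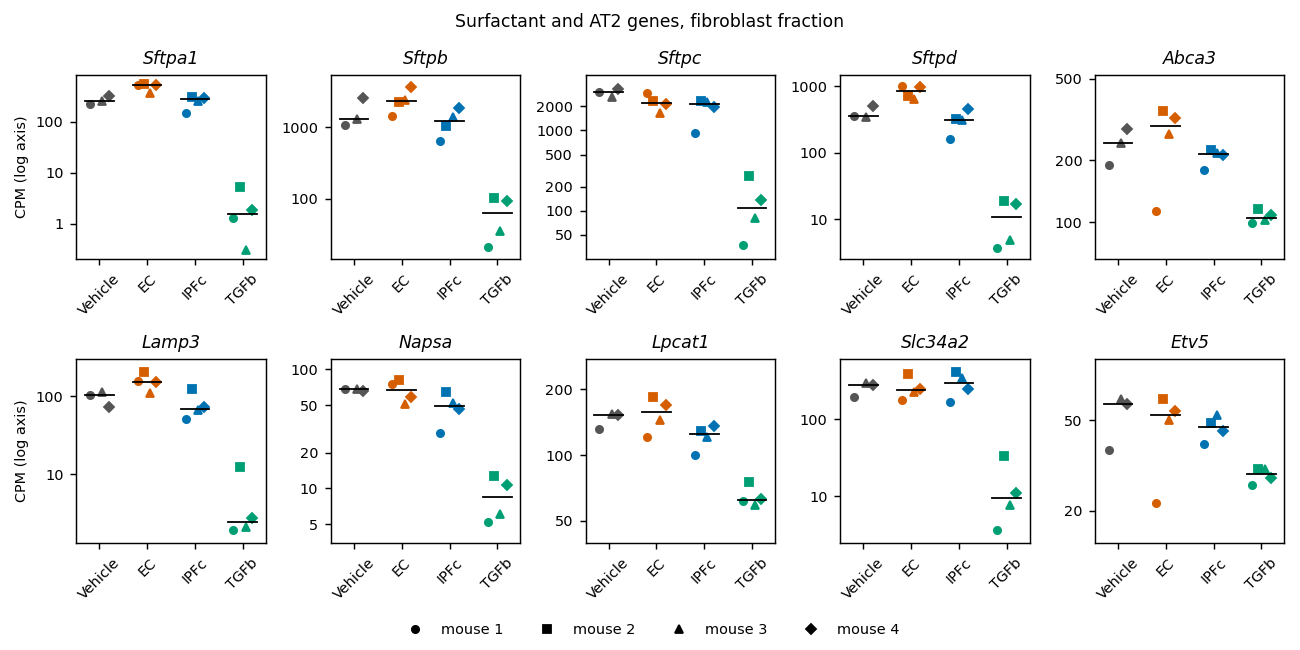
Level of each member in the 15 fibroblast libraries, in CPM on a log axis, by treatment. Symbols mark the mouse and bars the group median. With TGFb Abca3 drops to 99.1 to 115 CPM from 189 to 284 CPM with vehicle, and Sftpa1 to 0.306 to 5.29 CPM from 225 to 313 CPM.

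Across the 14 cultures with both fractions, all 10 members were higher in the epithelial fraction (67.7% of all genes passed, 32.6% as higher). These cultures came from 4 mice and pooled all treatments, with Sftpb differences from 0.059 to 5.10. The model took them as independent pairs, so its adjusted p-values are optimistic. Differences ranged from 0.59 ± 0.22 for Napsa (adjusted p = 0.0248) and 0.86 ± 0.35 for Sftpc (adjusted p = 0.0361) to 2.17 ± 0.36 for Sftpd (adjusted p = 3.19e-05). Sftpc was higher in the epithelial fraction in 11 of 14 cultures, and the exceptions were the EC cultures of mice 1, 2 and 3, where the fibroblast fraction held 183, 114 and 135% of the epithelial level. Without mouse 2, 3 or 4, and with robust estimation, the Sftpc difference did not pass, nor did that of Napsa without mouse 4 (adjusted p = 0.0909).

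Relative to the epithelial fraction of the same culture, the members were more abundant in the fibroblast fraction than the pan-epithelial markers were. Of 140 ratios of a member in a culture, 135 exceeded the pan-epithelial share of that culture. That share is a median, so some pan-epithelial markers exceed it too, and the count over all genes was not taken. Some markers of other epithelial cells shared this trait and others did not, by medians pooled over treatments rather than within cultures. Fibroblast and epithelial medians were 91.1 and 129 CPM for the AT1 marker Ager and 233 and 561 CPM for the club cell marker Hp. They were 211 and 1118 CPM for the AT1 marker Aqp5, beside 149 and 774 CPM for the pan-epithelial Cdh1. Club cell markers other than Hp lay near Cdh1 too, such as Scgb1a1 (131 and 671 CPM), Cyp2f2 (43.8 and 252) and Cbr2 (37.3 and 190). Pooled over the 14 cultures, the median was 4.53 times that share for Napsa, 3.92 times for Sftpc, 3.53 times for Etv5, 1.54 times for Sftpd and 1.48 times for Sftpb. Single TGFb cultures, where the share was smallest, reached 83.9 times for Etv5, 67.6 times for Abca3 and 19.8 times for Lpcat1, beside at most 6.18 times for Sftpc. In TGFb cultures Abca3 stood at 49.8 to 69.0% and Etv5 at 54.3 to 68.8% of the epithelial level and Lpcat1 at 16.2 to 20.4%, while Sftpa1 stood at 0.757 to 8.15% and Sftpd at 1.60 to 5.91%. With vehicle, Sftpa1 stood at 30.5 to 33.4% and Abca3 at 35.7 to 53.2%. Abca3 and Etv5 thus kept similar ratios with vehicle and TGFb while the pan-epithelial share fell from at least 13.6% to at most 3.41%.

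**Figure D5:**
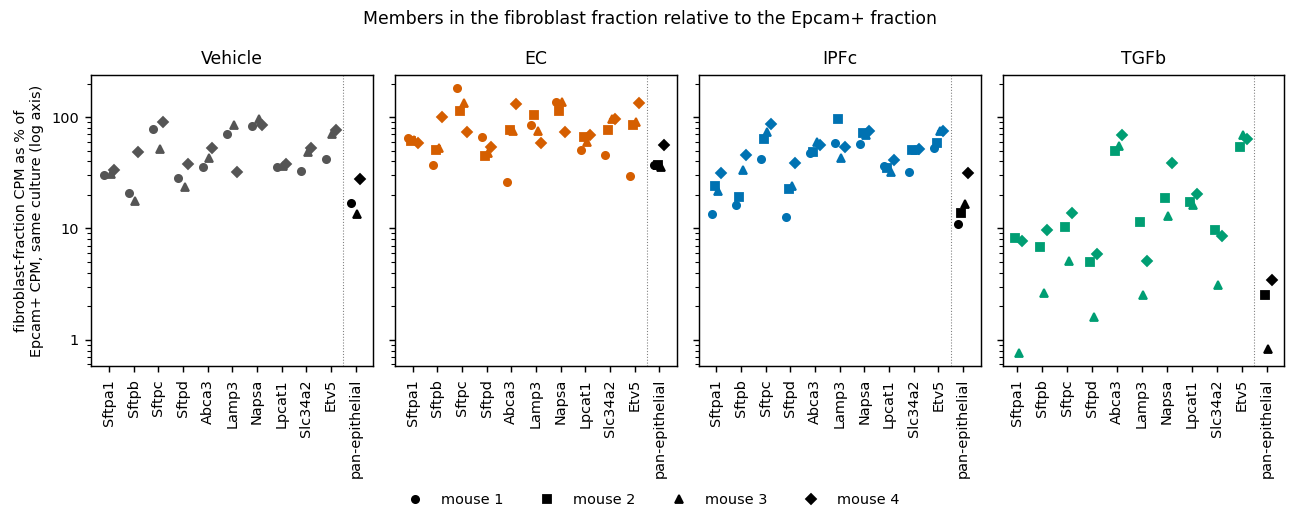
CPM of each member in the fibroblast fraction as a percentage of its CPM in the epithelial fraction of the same culture (log axis), by treatment, with the median ratio of the pan-epithelial markers in black at the right. With TGFb the pan-epithelial ratio is 0.820 to 3.41%, Abca3 and Etv5 remain between 49.8 and 69.0% and Sftpa1 is as low as 0.757%.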

How the data were processed

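Bulk RNA was sequenced from the Epcam+ and the remaining cells of organoid cultures of 4 mice. The authors trimmed reads with Trimmomatic 0.30 and deposited raw read counts per Ensembl gene, 1 file per library. The genome is GRCm39 per the labels and patch 6 of GRCm38 per the methods, and aligner, counter and strand setting are not given in the sources used here. The authors ran DESeq2 1.34.0 on the counts.

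Symbols in the files gave the members, and Ensembl identifiers their exon lengths, read from GENCODE (GRCm39). Positions printed are those of RefSeq (GRCm38.p6). From the counts, CPM were taken over library totals, and per kilobase of exon for levels compared between genes. Libraries of 1 comparison were tested with edgeR 4.0.16 in R 4.3.3 (TMM, quasi-likelihood test, two-sided, mouse as a block, genes with a mean count of at least 1), adjusted by Benjamini-Hochberg over all genes tested, with 0.05 as the threshold. Fits used 3 or 4 mouse pairs, or 14 cultures (the block there in place of the mouse) between fractions. Fold changes are given with standard errors of the fitted model, which shares spread across genes. They do not measure the scatter of a gene's own pairs. The lowest member count was 5 reads, in a fibroblast TGFb library.

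The pairing comes from the labels, which number the mice. Deviations from group means correlated by 0.26 on average for libraries of the same mouse and -0.09 for different mice in the epithelial fraction, and by 0.28 and -0.09 in the fibroblast fraction. The share of the other fraction's RNA was the median ratio of its markers to the partner library, over markers with at least 50 CPM there. Where the partner was not analysed here, its group mean was used. Partner libraries held RNA of both fractions, so the shares are overstated, and not equally between treatments. Values scaled by the fibroblast share may therefore be corrected too far, those with EC among them. Each share also takes its markers as RNA of the other fraction alone, which was not tested. Scaling by the fibroblast share multiplied library sizes by the remaining share and assumes that the members come from epithelial RNA alone. That assumption was not tested, and the scaled values of Abca3, Etv5 and Lpcat1 may not hold. In TGFb cultures their fibroblast-fraction levels were 49.8 to 69.0%, 54.3 to 68.8% and 16.2 to 20.4% of the epithelial level. The pan-epithelial share there was at most 3.41%.

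The members, the lists and the tests were chosen with earlier results of these data known. The text names all members, up to 3 genes per list and treatment with the smallest adjusted p among those that passed, the 5 genes most like Sftpc, and promoters of members that passed with at least 2 treatments. One gene that this rule names is not reported here and stays in the counts of its list. The gene with the opposite direction under EC, the order of mice and the promoters printed were chosen after their values were seen. Alternatives were DESeq2 1.42.0, its size factors, total counts, other filters (none, or a mean count of at least 10), no block, robust estimation, all 15 libraries of a fraction in one model, the fibroblast share, and each mouse left out.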

Additional observations from a re-analysis of the deposited data

Results flagged for a closer look

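Of 60 sets of 4 values (a member in a group of 4 libraries), 4 held a value far from the others by Dixon's criterion, where chance gives about 1 in 20. The count is near that rate. All 4 came from mouse 2, but the values of Abca3 and Sftpb share a library and are not independent. In the epithelial IPFc group, Abca3 was 468 CPM beside 367 to 380 CPM in the other mice, and Sftpb was 5364 CPM beside 3933 to 4124 CPM. In the epithelial EC group, Lpcat1 was 282 CPM beside 239 to 246 CPM. In the fibroblast TGFb group, Lamp3 was 12.2 CPM beside 1.95 to 2.76 CPM.

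Sftpb moved in opposite directions in the fractions under EC. It was lower in each of 4 epithelial pairs (log2 fold change -0.49) and higher in each of 3 fibroblast pairs (0.68). The difference between the fractions was not tested. The share of epithelial RNA in the fibroblast fraction was 13.6 to 27.5% with vehicle and 35.7 to 56.6% with EC, and its part in this was not tested.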

How the results depend on the processing

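The counts of members called stayed within 1.5 times their reported values under all alternatives run for TGFb against vehicle in both fractions, for EC and IPFc against TGFb and between fractions. The others changed as follows. Without the replicate block (edgeR), the count fell from 7 to 2 for epithelial EC, from 5 to 1 for epithelial IPFc, from 3 to 0 for EC against IPFc, from 4 to 0 for fibroblast EC and from 2 to 0 for fibroblast IPFc, with 5, 3 and 3 members at an unadjusted p under 0.05 where it was 0. With all 15 libraries in one model it was 2 for epithelial IPFc, 0 for fibroblast EC and 0 for fibroblast IPFc (2 and 4 at an unadjusted p under 0.05). Without a filter it was 6 for EC against IPFc, and DESeq2 gave 0 for fibroblast IPFc (5 at an unadjusted p under 0.05). The cause was not tested. Leaving out 1 mouse gave 4 to 8 for epithelial EC, 1 to 5 for EC against IPFc, 2 to 5 for fibroblast EC and 0 to 2 for fibroblast IPFc. Signs turned for 1 called value, Lpcat1 with TGFb (0.15 scaled by the fibroblast share). The other turns were of values that did not pass. By the fibroblast share these were Sftpa1 with EC (0.025), Sftpd with IPFc (0.026) and Lpcat1 between IPFc and TGFb (-0.21, and -0.031 with total counts). In the fibroblast fraction Abca3 with EC turned to 0.058 without the block and 0.072 in one model, Lpcat1 with EC to -0.018 with total counts, and Slc34a2 with IPFc to 0.020 without the block. With 1 mouse left out, epithelial values ran from -0.13 to 0.091 for Sftpa1 with EC, -0.31 to 0.042 for Napsa and -0.063 to 0.21 for Slc34a2 with IPFc. Between EC and IPFc they ran from -0.11 to 0.031 for Sftpb, -0.19 to 0.064 for Abca3 and -0.39 to 0.090 for Napsa, and from -0.24 to 0.79 for Sftpc between EC and TGFb. Fibroblast values ran from -0.19 to 0.20 for Abca3, -0.26 to 0.093 for Napsa and -0.0023 to 0.12 for Lpcat1 with EC, and from -0.16 to 0.055 for Slc34a2 with IPFc. Depth limits Sftpa1 in fibroblast TGFb libraries, with as few as 5 reads.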
